A study of Mus musculus with 12 samples.

Results

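The genes described here encode the proteins of the cytosolic ribosome in pools of cells picked from the mouse retina after optic nerve injury. Members were chosen by symbol from the 54232 genes of the count table of the whole study, taking protein-coding genes named Rpl or Rps with a number, together with Rplp0, Rplp1, Rplp2 and Rpsa. The pattern matched 89 symbols. Of these, 6 were left out as annotated pseudogenes (Rps3a3, Rps3a2, Rps4l, Rps12l1, Rpl6l and Rpl32l), which left 83 members, made up of 31 small subunit genes, 43 large subunit genes, 3 genes of the P stalk and 6 paralogs of core genes. S6 kinase genes, whose symbols start with Rps6k, were not members. All 12 libraries came from WT adult male mice that received an adeno-associated virus (AAV2) in the vitreous and then an optic nerve crush (ONC). The groups, of 3 libraries each, were AAV-GFP at day 7 after the crush (GFP day 7), AAV-Olig1 at day 7 (Olig1 day 7), AAV-GFP at day 14 (GFP day 14) and AAV-Olig1 at day 14 (Olig1 day 14), and the labels record 14 days of virus for every library at both days. AAV-Olig1 carries Olig1, a transcription factor known for its part in oligodendrocyte development, and AAV-GFP is the control virus, while the promoter in the vectors is not given in the labels. Each library was a pool of 10 to 20 cells, enriched with CD90.2 antibody beads and picked by fluorescence with a Unipick device. The RNA was amplified with the SMART-Seq HT kit, which copies full-length polyadenylated RNA, over 20 PCR cycles. Whether the 3 libraries of each group derive from different mice is not stated, and p-values reflect variation among libraries that may be technical. Several batches are mentioned without assigning libraries to them.

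A cytosolic ribosome joins a small subunit, which reads the mRNA, to a large subunit, which forms peptide bonds. Nearly all of its proteins are present in equal numbers, and their genes are known to be transcribed and translated together in most tissues. Their mRNAs commonly start with a run of pyrimidines, the 5′ terminal oligopyrimidine tract, through which mTOR signalling controls their translation. Ribosomes and ribosomal protein mRNAs are also found in axons, and protein synthesis downstream of mTOR is a much studied part of axon regrowth by retinal ganglion cells after optic nerve crush.

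Library totals ran from 12534515 to 27602459 counts, and all 6 day 7 libraries had lower totals than all 6 day 14 libraries, narrowly so between the highest day 7 library (18770886) and the lowest day 14 library (18798849). Olig1 itself was at 0 to 0.351 CPM (counts scaled to the same library total) in the 6 GFP libraries and at 56.4 to 1029 CPM in the 6 Olig1 libraries. The cells are labelled as retinal ganglion cells. Among the ganglion cell markers Rbpms, Slc17a6, Pou4f1 and Pou4f2, summed levels were 0.0392 to 76.0 CPM in the GFP libraries and 6.92 to 599 CPM in the Olig1 libraries, and Pou4f3 was at 0 in all of them. Of 15 ganglion cell markers, which include genes of other neurons such as Snap25 and Stmn2, 8 to 14 were detected per library. Their summed level was 1357 to 5112 CPM in the GFP libraries and 5486 to 17111 CPM in the Olig1 libraries. All 12 Müller glia markers were detected in every library, with Apoe, a lipid carrier abundant in glia, at 38975 to 115723 CPM. At day 7 the summed level of 13 rod markers was 11188 to 57860 CPM with GFP and 589 to 866 CPM with Olig1. In 4 libraries the markers of microglia and macrophages exceeded 1000 CPM in sum (GFP day 7 replicate 3, Olig1 day 7 replicate 3, GFP day 14 replicates 2 and 3). Markers of B lineage cells stood at 132547 CPM in GFP day 14 replicate 3 and at 67.4 CPM or less elsewhere. In pools such as these, fewer cells of a type and less RNA per cell cannot be told apart.

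Ribosomal protein genes held a small share of the counts at both days. With GFP at day 7 the 83 members held 1.50%, 1.90% and 1.73% of the counts of replicates 1, 2 and 3, and with Olig1 at day 7 they held 1.53%, 2.64% and 2.29%. With GFP at day 14 the shares were 1.18%, 1.36% and 1.14%, and with Olig1 at day 14 they were 1.22%, 1.50% and 0.914%. Wilson intervals at the 95% level were at most 0.00888 percentage points to either side and cover counting error only. Olig1 day 7 replicate 2 had the highest share and Olig1 day 14 replicate 3 the lowest. The viruses overlapped at each day. The days did not overlap, but only narrowly, since the lowest day 7 library (GFP day 7 replicate 1) and the highest day 14 library (Olig1 day 14 replicate 2) both round to 1.50%. At day 7 the mean share was 1.71% ± 0.201 with the control virus and 2.15% ± 0.568 with Olig1 (SD, n = 3). By day 14 these means stood at 1.23% ± 0.117 and 1.21% ± 0.291 (SD, n = 3). When the 50 most abundant genes of each library were taken out of the total, the day 7 shares were 2.28% to 3.84% and the day 14 shares 1.71% to 2.53%, which overlapped. Summed over genes, the 43 large subunit genes had 1.21 to 1.48 times the counts of the 31 small subunit genes. These sums are not adjusted for the number or length of the genes. The 3 stalk genes held 0.0491% to 0.160% of all counts.

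**Figure D1:**
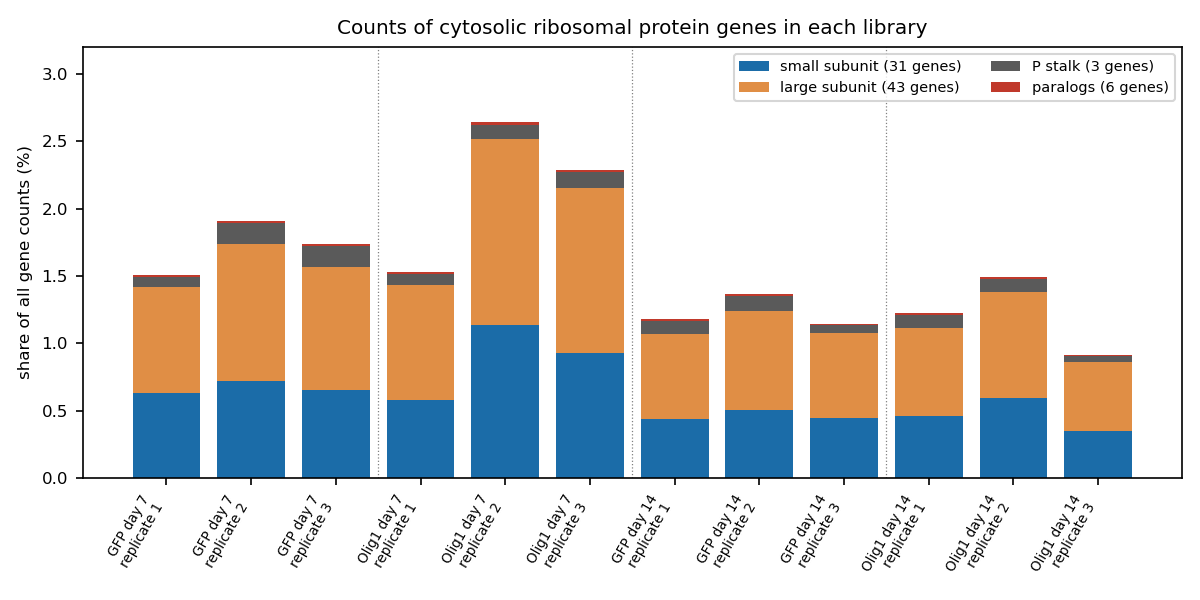
Share of all gene counts (%, vertical axis) held by ribosomal protein genes in each of 12 libraries, stacked by class, with dotted lines between the 4 groups. Day 7 libraries lie between 1.50% and 2.64% and day 14 libraries between 0.914% and 1.50%, and the viruses overlap at both days.

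Levels of different members differed widely although their proteins are assembled in equal numbers. The highest mean levels over 12 libraries were those of Rpl13 (855 CPM), Rpl41 (585 CPM, whose peptide is among the shortest known) and Rplp0 (556 CPM, the base of the stalk that recruits elongation factors). Together the 10 most abundant members held 33.6% of the member counts. Levels of different genes can be compared only per length, and per kilobase of all annotated exons the highest were Rpl36 (554 CPM per kb), Rpl41 (501), Rplp1 (421) and Rps3a1 (418). The choice of length decides this order, since per kilobase of coding transcript the highest were Rpl41 (1111 CPM per kb) and Rpl13 (1096), and Rpl36 came in place 8. The 3 lowest detected members were the same on both lengths, and Rpl24 was far below the others. Per kilobase of coding transcript Rpl23a was at 13.5 CPM, Rpl13a (known for a role outside the ribosome in silencing inflammatory mRNAs) at 13.3 and Rpl24 at 0.965, while the median of the 43 tested members with at least 70% unique sequence was 223.

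Exons of these 3 genes overlap other annotated genes. Another gene on the same strand covers 71.5% of the coding-transcript exon bases of Rpl24 (Gm28037, 0 counts in all libraries) and 53.3% of those of Rpl13a (Gm45713, 0 counts in all libraries), the largest such shares among the members. On the opposite strand, Tlcd1 covers 55.4% of Rpl23a. Opposite-strand overlap was larger still for Rpl35 (68.3%, by Wdr38) and of similar size for Rpl30 (55.0%), and these were at 66.5 and 104 CPM per kb of coding transcript. Counting programs commonly leave out reads that fall in more than 1 gene. Neither the overlap setting nor the strand setting of the counts is given in the sources used here, so the part of overlap in these low values was not tested. Rpl24 had 0 counts in 4 libraries (GFP day 7 replicates 1, 2 and 3 and Olig1 day 7 replicate 2), and its highest level was 4.57 CPM, in GFP day 14 replicate 2. Values of these 3 genes, and of any member with near-identical copies, are uncertain.

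Copies are common in this family. At least 1 annotated pseudogene shared a 50-base stretch of coding-transcript sequence with 80 of the 83 members. Over the 80 tested members, a median of 75.3% of 100-base windows (range 16.4% to 100%) occurred in no other annotated gene, with the lowest values for Rpl36a (16.4%), Rps6 (16.4%), Rpl35 (17.0%) and Rpl5 (17.3%). The 8 members under 30% had a median of 94.2 CPM per kb of coding transcript, against 247 for the 29 members between 30% and 70% and 223 for the 43 above. Spearman's rho between this uniqueness and the level was 0.0771 across the 80 genes, which share libraries and are not independent. The left-out pseudogene Rps4l was at 21.7 to 277 CPM.

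The paralogs split into silent and expressed genes. Rpl3l (a heart and muscle form of Rpl3), Rpl10l (a testis form of Rpl10) and Rpl39l (a testis form of Rpl39) had 0 counts in all 12 libraries, where the limit that a count of 0 allows, 3 counts, was 0.109 to 0.239 CPM. Rps27l, a p53-responsive form of Rps27, was at 14.1 CPM (Olig1 day 7 replicate 1) to 144 CPM (Olig1 day 7 replicate 2). The range of Rpl7l1, a Rpl7-like gene, was 19.6 to 113 CPM. Rpl22l1, which is known to be held down by its paralog Rpl22, is described with the comparisons.

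The filter on low counts, 10 counts judged by group, kept 80 members, all except these 3, among 14985 genes. Members varied less between libraries of a group than most genes. The biological coefficient of variation, edgeR's estimate of the relative spread between libraries of a group beyond counting error, had a median of 0.660 over 80 members (10th to 90th percentile 0.599 to 0.762) and 1.34 over all genes tested, and 78 of the 80 members were below the latter. Spread falls with level, and the 2387 genes between 48.7 and 414 CPM, the 10th to 90th percentile of member levels, had a median of 0.721. Among the smallest SDs over 12 libraries on the log2(CPM + 1) scale were those of Rpl26 (0.41), Rpl13 and Rps19, a gene mutated in Diamond-Blackfan anaemia (both 0.42), with Rpl13 at 559 to 1411 CPM. Among the largest were those of Rps10 (1.86), Rpl13a (1.42) and Rpl22l1 (1.21). For Rps10, a single library set the value. It had 1 count (0.0392 CPM) in GFP day 14 replicate 1 and 26.5 to 153 CPM in the other 11 libraries.

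**Figure D2:**
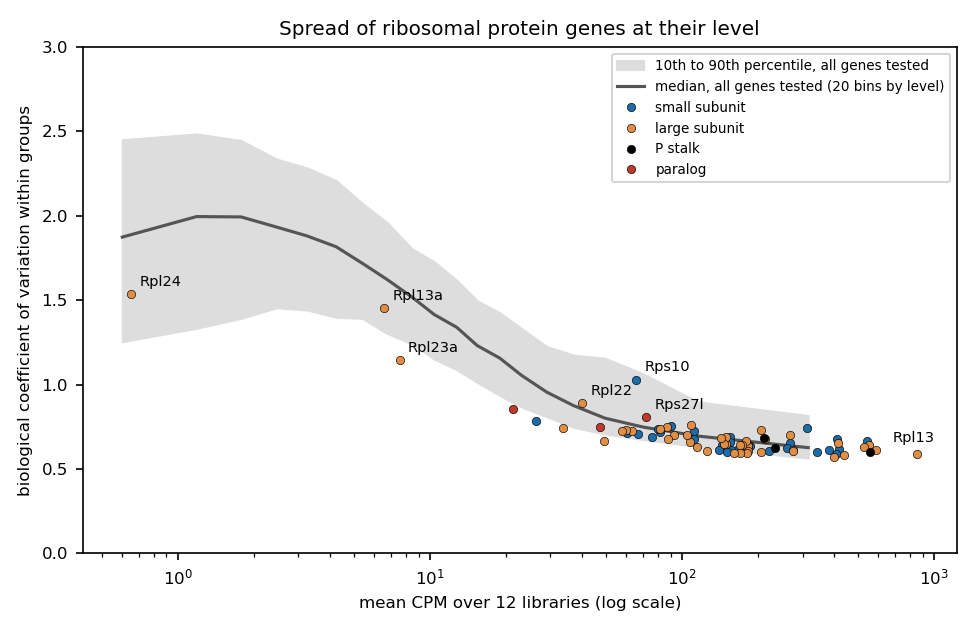
Biological coefficient of variation within groups (vertical axis) against mean CPM over 12 libraries (horizontal log axis) for 80 tested members, coloured by class, over the median and the 10th to 90th percentile of all genes tested in 20 bins by level. Most members lie near the median line at their level, and Rps10 stands above the others of its level.

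Libraries differed in which members were high. Relative to the median member of each library, members were counted that lay more than 1 log2 unit from their mean over the other libraries. Olig1 day 7 replicate 2 had 35 such members, GFP day 14 replicate 1 had 21 and the other 10 libraries had 5 to 11. Against the mean of the other libraries, on that relative scale, Olig1 day 7 replicate 2 was lowest for Rpl27a (−3.35), Rpl10a (−3.31), Rpl12 (−2.96, part of the stalk base) and Rplp0 (−2.75). It was highest for Rpl22 (1.84), Rps23 (1.81), Rpl7a (1.75) and Rps15a (1.73). In GFP day 14 replicate 1 the lowest were Rps10 (−5.53) and Rpsa (−2.29), and the highest was Rps20 (1.65). Both subunits appear on both sides in these libraries, though not evenly. In Olig1 day 7 replicate 2 the 4 lowest members are large subunit and stalk genes, and the lowest small subunit gene was Rps15 (−1.74). The ratio of large to small subunit counts in that library was 1.21, the lowest of the 12. Olig1 day 7 replicate 2 also had the smallest total and a scaling factor from edgeR's trimmed mean (TMM) of 0.676, the lowest of the 12, which raises its scaled values.

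**Figure D3:**
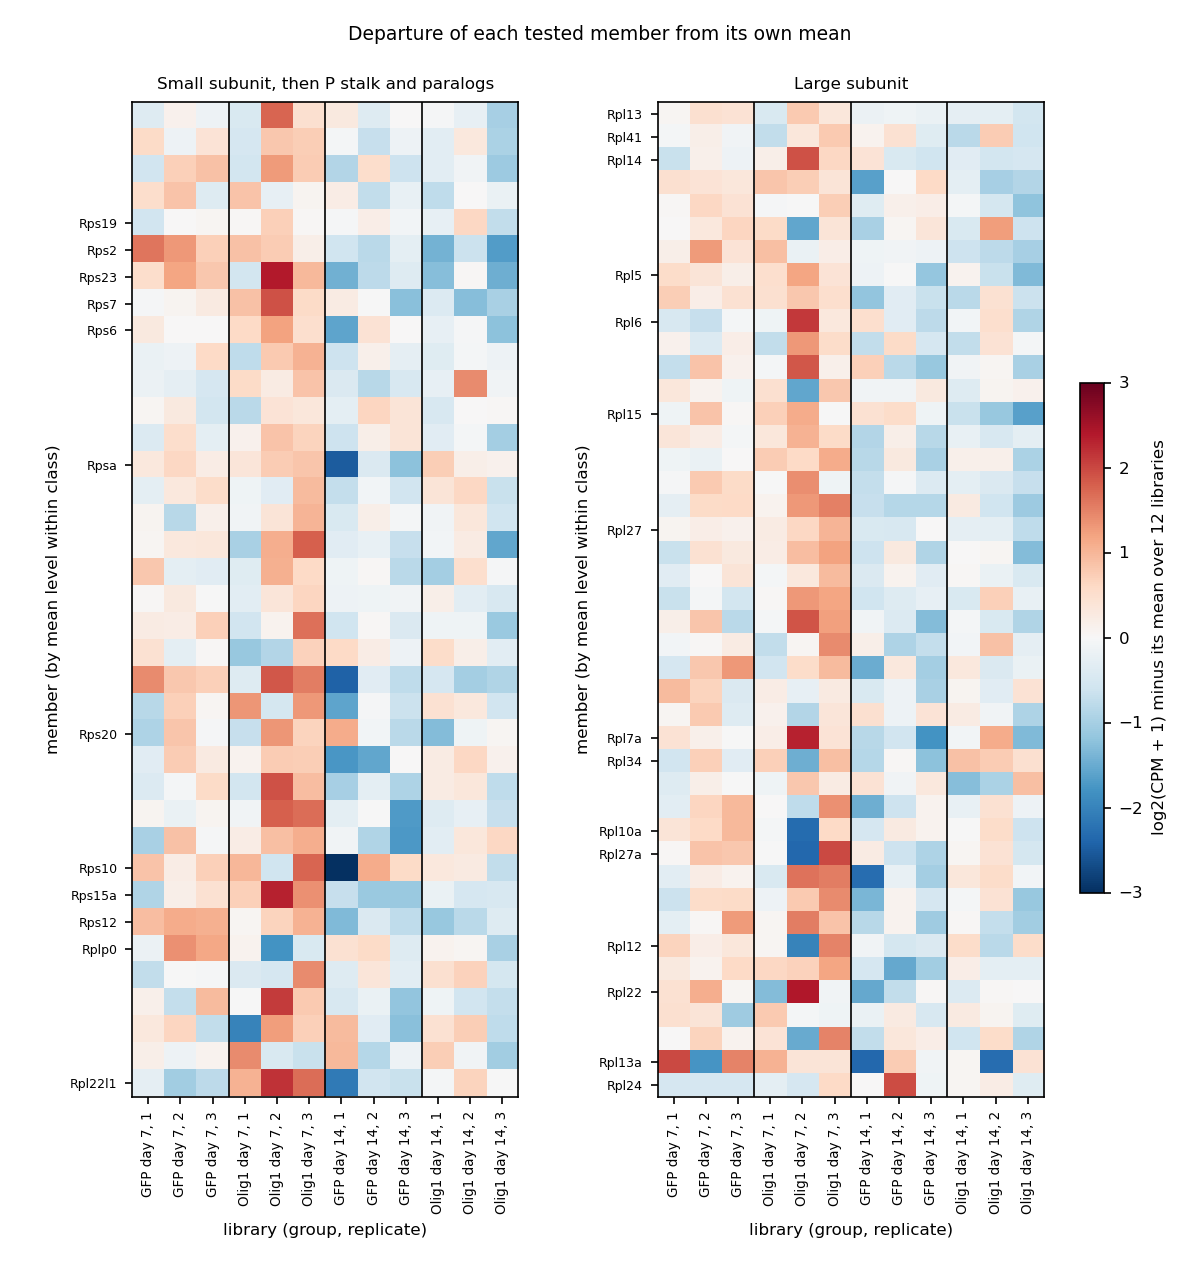
Heat map of log2(CPM + 1) of each tested member (rows, ordered by mean level within class, some labelled) minus its mean over 12 libraries (columns, 3 per group), red above and blue below the mean and colours ending at 3. Olig1 day 7 replicate 2 holds both the strongest red and several of the strongest blue cells, and Rps10 is darkest blue in GFP day 14 replicate 1.

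Many members carry a pyrimidine run where transcription starts. A tract was counted where a C lay within 5 bases of the annotated start on the transcribed strand and was followed by 4 bases that were each C or T. The C nearest to the start was taken, and pyrimidines before it were not considered. RefSeq start positions on GRCm38.p6 were found for 63 members (75 starts), and 20 had no entry. A tract was present at 31 of the 75 starts (41.3%), against 18.3% of 32851 starts of all genes. The counted C lay exactly at the start in 17.3% of member starts and 2.51% of all, whatever bases came before it. The windows below, 15 bases before and 15 from the start on, 5′ to 3′, are shown for members on which the comparisons turn. Capitals mark the tract from the counted C on.
Rps6, chr4:86857353-86857382, minus strand: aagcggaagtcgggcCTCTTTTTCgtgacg
Rpl15, chr14:18270972-18271001, minus strand: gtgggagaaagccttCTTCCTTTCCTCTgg
Rps15a, chr7:118116133-118116162, minus strand: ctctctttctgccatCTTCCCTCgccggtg
Rpl14, chr9:120571502-120571531, plus strand: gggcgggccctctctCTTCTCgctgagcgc
Rps10, chr17:27635230-27635259, minus strand: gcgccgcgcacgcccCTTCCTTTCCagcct
Rps2, chr17:24720048-24720077, plus strand: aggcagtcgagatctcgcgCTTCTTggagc
Rpl22l1, chr3:28805493-28805522, plus strand: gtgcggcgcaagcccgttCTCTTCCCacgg
Rps12, chr10:23787195-23787224, minus strand: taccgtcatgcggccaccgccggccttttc
Rplp0, chr5:115559452-115559481, plus strand: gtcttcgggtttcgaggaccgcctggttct
In Rps6, Rpl15, Rps15a, Rpl14 and Rps10 the counted C is at the start itself, and in each the run of pyrimidines reaches back before the start. In Rps2 and Rpl22l1 the counted C lies 4 and 3 bases further on. Rps12 and Rplp0 have no such C within 5 bases of the start. The 29 tested members with a tract within 5 bases had a median level of 192 CPM per kb of coding transcript and the 31 tested members without had 259. Their median log2 fold changes for Olig1 against GFP at day 7 were 0.74 and 0.63, and for day 14 against day 7 over both viruses −0.65 and −0.47, given without a test.

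Expression was compared in 1 edgeR quasi-likelihood fit of all 12 libraries, with TMM scaling and Benjamini-Hochberg adjustment over 14985 genes. The first question was what Olig1 did at day 7. The test called 0 of 80 members there at an adjusted p under 0.05, where 0.227% of all genes were called. Fold changes were above 0 for 67 of 80 members, against 49% of all genes, with a median log2 fold change of 0.72 (1.65-fold) against −0.03 over all genes. Small subunit genes had a median of 0.78 (27 of 31 above 0) and large subunit genes 0.63 (35 of 43). At an unadjusted p under 0.05, 11 members were higher and 1 lower with Olig1, against 8.95% and 5% of all genes. DESeq2 called 1 of 79 members, Rpl22l1, where it called 7.17% of all genes to which it gave an adjusted p, and limma voom called 0 of 80 (background 2.73%). In every contrast DESeq2 gave Rpl24 no adjusted p.

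Most of this shift was lost without 1 library. Without Olig1 day 7 replicate 2, the member median was 0.12, 49 of 80 were above 0, and 1 member was higher and 1 lower at an unadjusted p under 0.05. The shares of all genes were then 47.6% above 0, 5.12% higher and 2.38% lower. The shift was 0.40 when libraries were scaled by their totals alone. Beside it, rod marker levels at day 7 did not overlap between the viruses and neither did the 4 ganglion cell markers (0.160 to 76.0 CPM with GFP, 102 to 599 CPM with Olig1). Erythroid markers stood at 2630 CPM in Olig1 day 7 replicate 2 and at 0.725 to 121 CPM in the other 11 libraries. The part of these cell types in the member values was not tested.

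Among members with the smallest p at day 7, Rpl6 was at 158, 136 and 213 CPM with GFP and at 202, 971 and 276 CPM with Olig1. These groups overlap, and replicate 2 is far above the other Olig1 libraries. The fitted log2 difference was 2.06 ± 0.72 (SE), with edgeR's adjusted p = 0.262, and it was 0.40 without that library. Rpl14, another large subunit protein, was at 299, 531 and 425 CPM with GFP and at 534, 1785 and 735 CPM with Olig1. Its groups meet without overlapping in CPM. They overlap once the TMM factors of GFP replicate 2 (1.00) and Olig1 replicate 1 (1.22) are applied. The fitted log2 difference was 1.71 ± 0.60 with edgeR's adjusted p = 0.266, and it too was smaller, at 0.45, without Olig1 replicate 2. Rplp0 was on the other side, at 424, 1229 and 1060.1 CPM with GFP and at 512, 136 and 347 CPM with Olig1 (−1.43 ± 0.52, edgeR's adjusted p = 0.268). Rpl10a, second on that side, had a log2 difference of −0.86 ± 0.66 and an Olig1 range of 14.7 to 118 CPM, with −0.48 when Olig1 day 7 replicate 2 was left out and −1.39 when replicate 3 was. Not overlapping in CPM, all higher with Olig1, were 10 members, among them Rpl14, Rps15a, Rpl22l1, Rpl28, Rps7, Rpl23, Rps6, Rpl27 and Rpl39. The background is 9.4% of all genes, and 0 members did not overlap in the lower direction, against 9.01%. Rps6, the target of S6 kinases, was at 242 to 294 CPM with GFP and at 336 to 552 CPM with Olig1.

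Rpl22l1 had the clearest separation between the viruses. It was at 12.2, 6.79 and 8.31 CPM in GFP day 7 and at 32.0, 71.1 and 49.9 CPM in Olig1 day 7. At day 14 it was at 2.67, 9.75 and 9.02 CPM with GFP and at 14.4, 24.5 and 14.8 CPM with Olig1. Every Olig1 library was above every GFP library, on both days. This held for 1 of 80 members and for 0.721% of all genes, so 1 such member is near that share. The log2 difference over the mean of both days was 2.05 ± 0.72, with edgeR's adjusted p = 0.174. DESeq2, which called 1 of 79 members and 8.67% of all genes there, gave an adjusted p of 0.00779 for it. Over all alternatives its adjusted p ran from 0.00779 to 0.519. The 3 highest libraries were those of Olig1 day 7. Rpl22, its paralog, ranged from 9.76 to 163 CPM without such a separation.

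At day 14 the members were centred on no difference. Again 0 of 80 were called by edgeR (background 0.04%), and DESeq2 (background 5.38%) and limma voom (background 0.2%) also called 0. The median log2 fold change was 0.01, with 40 of 80 above 0, against 0.09 and 52.6% over all genes. Without GFP day 14 replicate 3, the library high in B lineage markers, the member median was 0.10, and the part of those cells in the values was not tested. At an unadjusted p under 0.05, 1 member was higher and 1 lower, against 5.57% and 4.86% of all genes. Rpsa, which also serves as a laminin receptor precursor, was at 25.2, 110 and 62.8 CPM with GFP and at 246, 168 and 162 CPM with Olig1 (1.49 ± 0.60, edgeR's adjusted p = 0.438). Rpl15, a large subunit protein, was at 220, 233 and 146 CPM with GFP and at 99.6, 71.8 and 50.7 CPM with Olig1 (−1.43 ± 0.59, edgeR's adjusted p = 0.438). Neither pair of groups overlaps, and GFP day 14 replicate 1 is the lowest for Rpsa. Rpl34 was at 50.9, 94.7 and 39.3 CPM with GFP and at 171, 159 and 129 CPM with Olig1 (1.33 ± 0.63, edgeR's adjusted p = 0.479). Rpl7 was at 327 to 335 CPM with GFP, all within a narrow band, and at 181 to 235 CPM with Olig1 (−0.71 ± 0.47, edgeR's adjusted p = 0.741). In all, 8 of 80 members were higher without overlap (background 7.78%) and 3 lower (background 4.12%). Rps15a, Rpl39 and Rpl22l1 were among those higher without overlap at both days.

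Over the mean of both days, Rpl22l1 was the only member whose virus groups did not overlap (backgrounds 0.721% higher and 0.507% lower), and edgeR called 0 members (background 0.654%), and 65 of 80 were above 0 (51.9% of all genes), with a median of 0.36 against 0.06. DESeq2 called Rpl22l1 alone (background 8.67%) and limma voom 0 members (background 3.02%). At an unadjusted p under 0.05, 8 were higher and 1 lower, against 8.5% and 6.38% of all genes. Beside Rpl22l1, the higher side included Rpl7a, at 1.46 ± 0.57 (edgeR's adjusted p = 0.230). On the lower side Rplp0 had −0.93 ± 0.36 (edgeR's adjusted p = 0.233). Without Olig1 day 7 replicate 2 the member median was 0.11.

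The difference of the Olig1 effect between the days was tested as an interaction, and edgeR called 0 members and 0 genes. Of the members, 60 of 80 were below 0 (48.7% of all genes), with a median of −0.63 against 0.07, and at an unadjusted p under 0.05, 0 were higher and 4 (Rps7, Rpl15, Rpl24 and Rpl14) lower, against 4.57% and 5.33% of all genes. DESeq2 (background 3.89%) and limma voom (background 0%) also called 0 members. The median was −0.08 without Olig1 day 7 replicate 2 and −0.46 without GFP day 14 replicate 3. Rps7 had the smallest p (−2.14 ± 0.82, edgeR's adjusted p = 0.399), followed by Rpl15 (−2.08 ± 0.82, edgeR's adjusted p = 0.423). Without Olig1 day 7 replicate 2 these log2 differences were −1.09 and −1.31. On the other side Rplp0 stood at 1.00 ± 0.72 and Rpl34 at 1.06 ± 0.88, and without GFP day 7 replicate 2 at 0.57 and 0.37.

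**Figure D4:**
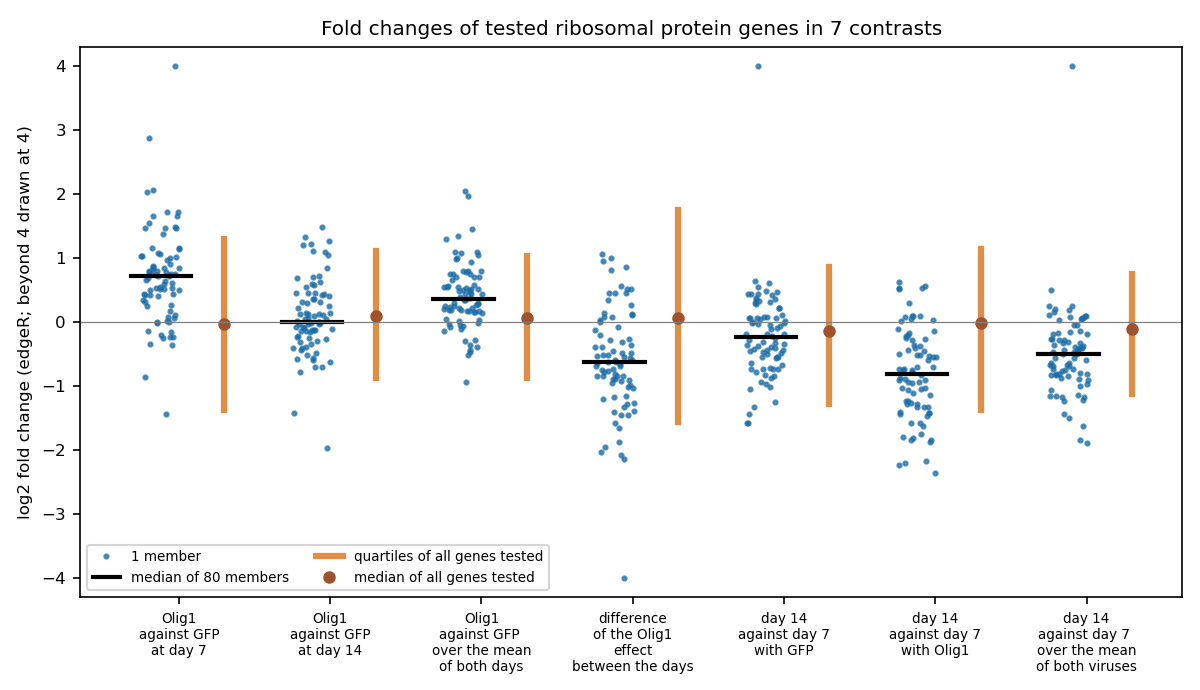
Log2 fold changes of 80 tested members (points, values beyond 4 drawn at 4) in 7 contrasts, with their median (black line) beside the median and quartiles of all genes tested (brown point, orange bar). Members centre at 0.72 for Olig1 against GFP at day 7, at 0.01 at day 14 and at −0.81 for day 14 against day 7 with Olig1.

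Between the days, most members were lower at day 14 with each virus under this scaling. With GFP the median log2 fold change of day 14 against day 7 was −0.23, with 51 of 80 below 0, against −0.14 and 53.4% over all genes. With Olig1 it was −0.81, with 67 of 80 below 0, against −0.01 and 50.2%. For edgeR the count of called members was 0 in each (backgrounds 0% and 0.0334%), limma voom called 0 in each (backgrounds 0.12% and 1.95%), and DESeq2 called 0 with GFP and 3 with Olig1, Rps15a, Rps2 and Rps7 (backgrounds 4.77% and 4.53%). At an unadjusted p under 0.05, 1 was higher (Rpl24) and 1 lower (Rps2) with GFP (backgrounds 4.5% and 5.77%), and 0 higher and 15 lower with Olig1 (backgrounds 4.26% and 7.52%). Without overlap in CPM by library total, which carries no TMM factors, 20 members were lower with GFP (background 10.5%) and 25 with Olig1 (background 10.6%). Only Rpl24, listed at 0 in all 3 GFP day 7 libraries, was higher without overlap with GFP (background 3.96%), and 0 members were with Olig1 (background 5.55%). Without Olig1 day 7 replicate 2, the median with Olig1 was −0.40, with 4 of 80 members lower at an unadjusted p under 0.05, near the 4.64% of all genes. With GFP, the median was 0.00 without GFP day 7 replicate 2. Scaling by library totals alone moved the median of all genes by −0.32 with GFP and −0.20 with Olig1, and the member medians were then −0.51 and −0.85. These contrasts share libraries with the virus contrasts and are not independent of them.

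Rps7, a small subunit protein, had the smallest p with Olig1. Day 7 libraries held 406, 831 and 331 CPM and day 14 libraries 165, 90.5 and 111 CPM, with no overlap (−2.23 ± 0.60, edgeR's adjusted p = 0.371). Without Olig1 day 7 replicate 2 the log2 difference was −1.29. Its GFP libraries spanned 214 to 265 CPM on day 7 and 91.1 to 264 CPM on day 14, which overlap. On the other side, Rplp0 stood at 0.57 ± 0.51 (edgeR's adjusted p = 0.751) and Rpl34 at 0.63 ± 0.62 (edgeR's adjusted p = 0.782).

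Over the mean of both viruses, a contrast added after the data were seen, 65 of 80 members were lower at day 14 (53.1% of all genes), with a median of −0.49 (0.711-fold) against −0.10. Here too edgeR called 0 members (background 0.0667%). DESeq2 called 5, all lower at day 14 and among them Rps15a, Rps2, Rps23 and Rps12 (background 5.87%), and limma voom 1, Rps2 (background 1.11%). Both member counts are near those shares. At an unadjusted p under 0.05, 14 were lower and 1 higher (backgrounds 7.89% and 5.3%), the latter being Rpl24. In 4 members, Rps2, Rps12, Rpl5 and Rpl27, every day 7 library was above every day 14 library in CPM, without TMM factors (background 0.827%). In that way 0 members were higher (background 0.214%). The total counts also separate by day, by a narrow margin, and the names of alignment files in the table's header carry a different number for each day, so day, depth and any run cannot be told apart.

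Rps2, which lines the entry channel for mRNA on the small subunit, was at 830, 666 and 448 CPM in GFP day 7 and at 497, 463 and 304 CPM in Olig1 day 7. At day 14 it was at 179, 155 and 220.0 CPM with GFP and at 101, 173 and 83.7 CPM with Olig1. In CPM by library total, the lowest day 7 library (Olig1 replicate 3) is above the highest day 14 library (GFP replicate 3). Their TMM factors were 1.22 and 0.722, and with these factors applied the order of the 2 libraries reverses. The log2 difference over both viruses was −1.63 ± 0.38, with edgeR's adjusted p = 0.175 and an unadjusted p of 0.000549. Over the alternatives the adjusted p ran from 0.0038 (DESeq2) to 0.319. Rps12, a protein of the beak of the small subunit, ranged from 22.5 to 48.0 CPM in day 7 libraries and from 8.04 to 16.4 CPM in day 14 libraries (−1.50 ± 0.62, edgeR's adjusted p = 0.316). Rpl5, which with Rpl11 and 5S RNA binds the p53 regulator Mdm2, ranged from 278 to 562 CPM in day 7 libraries and from 97.7 to 264 CPM in day 14 libraries (−0.91 ± 0.38, edgeR's adjusted p = 0.325). Its lowest day 7 library (GFP replicate 3, TMM factor 1.21) and highest day 14 library (Olig1 replicate 1, TMM factor 0.948) also change order with these factors. Rpl27 lay between 171 and 326 CPM in day 7 libraries and between 93.9 and 161.5 CPM in day 14 libraries (−0.56 ± 0.36, edgeR's adjusted p = 0.547). Rpl11, the partner of Rpl5, spanned 104 to 627 CPM in day 7 libraries and 76.9 to 279 CPM in day 14 libraries, which overlap. Apart from Rpl24, the member with the smallest p on the higher side was Rps15, at 58.3 to 212 CPM at day 7 and 104 to 199 CPM at day 14 (0.50 ± 0.39, edgeR's adjusted p = 0.632).

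**Figure D5:**
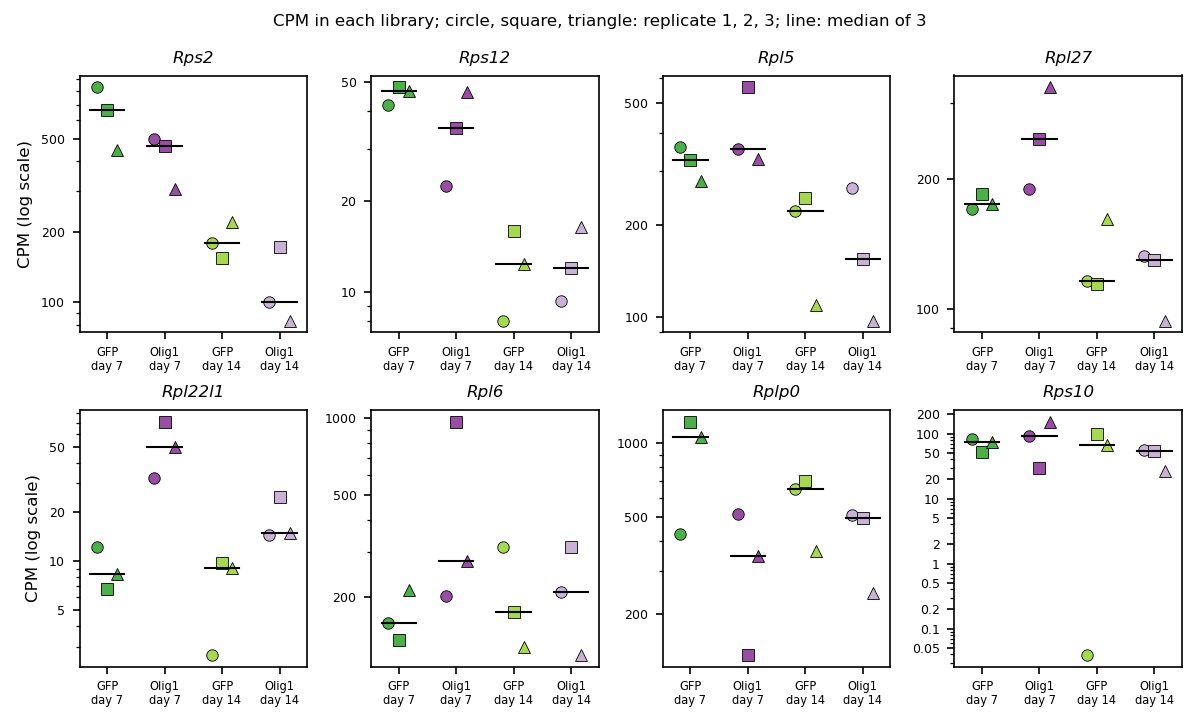
CPM (log axis) of 8 members in every library, by group, with symbols for replicates and a line at the median of 3. On this scale, without TMM factors, Rps2, Rps12, Rpl5 and Rpl27 are higher in all 6 day 7 than in all 6 day 14 libraries. Rpl22l1 is higher in all 6 Olig1 libraries, and Rpl6 and Rps10 each have 1 library far from the rest.

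Other members with known roles of their own differed in whether the groups overlapped. Rpl10, among the last proteins to join the large subunit, was at 159 to 278 CPM in GFP day 7 and at 98.3 to 158 CPM in GFP day 14. With Olig1 it spanned 148 to 427 CPM on day 7 and 99.95 to 132 CPM on day 14, so the days did not overlap with either virus alone. Over both viruses they did, since the highest GFP day 14 library lies above the lowest Olig1 day 7 library. Rps4x, encoded on the X chromosome, was at 186 to 309 CPM in Olig1 day 7 and at 84.0 to 164 CPM in Olig1 day 14, without overlap, while its GFP groups overlapped. Rpl38, needed for translation of a set of Hox mRNAs, was at 12.5 to 56.0 CPM in GFP day 14 and at 61.9 to 95.5 CPM in Olig1 day 14, without overlap. Rps27a, made as a fusion with ubiquitin, was at 101 to 277 CPM, and its groups overlapped in all 4 comparisons of single groups.

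Genes outside the rule that work with the ribosome were examined from lists. Of the other ribosomal components, Fau was at 161 to 502 CPM and Rack1 at 32.0 to 915 CPM, with its highest value in Olig1 day 7 replicate 2. Over 7 contrasts edgeR called neither. Among 8 genes listed as elongation factors, 1 was called, higher with Olig1 at day 7, where 0.227% of all genes were called. The called gene was Eef1e1, which despite its name is a scaffold of the tRNA synthetase complex. It was at 14.3, 12.5 and 31.2 CPM with GFP and at 133, 547 and 152 CPM with Olig1 (4.39 ± 0.85, edgeR's adjusted p = 0.0475). Olig1 day 7 replicate 2 held its highest value. Of the tested genes on the remaining lists, 36 initiation factors, 11 further genes with pyrimidine tracts, 39 ribosome assembly factors, 20 RNA polymerase I genes and 20 genes of the S6 kinase and mTOR pathway, edgeR called 0 in any contrast. At day 7 the median log2 differences between Olig1 and GFP were 0.94 for elongation factors and 0.12 for initiation factors. For assembly factors the median was 0.09, for RNA polymerase I genes −0.40 and for the mTOR pathway −0.25. For the 11 further genes with pyrimidine tracts it was 0.49, and over all genes −0.03.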

How the data were processed

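Gene counts of 12 libraries were deposited by the authors as raw counts per gene, used from the table of the whole series. FastQC, HISAT2, HTSeq and the mm10 build are named per the submitters' processing notes. Versions, annotation and strandedness were not given in the sources used here. Symbols came from GENCODE M21 (54165 of 54232 IDs matched). Of the single-library files, 4 lacked some genes and were not used. Levels are CPM by library total (12534515 to 27602459 counts). Overlap of groups was judged on these CPM, without TMM factors. Tests used edgeR 4.0.16 (TMM, a minimum count of 10 by group, 1 robust quasi-likelihood fit of 4 groups), with DESeq2 1.42.0 and limma 3.58.1 as alternatives, after the script was tested on simulated data. A call is an adjusted p under 0.05. Members and lists were chosen with earlier results of these data known. Named members are the 2 with the smallest p on each side of each contrast, the 4 highest and lowest per length, the 4 with the largest and smallest SD, those at 0 counts in any library, the paralogs and a panel with known roles. Others, such as members whose groups did not overlap, were named after their values were seen. Some members that the rule names are not reported here. Start windows came from RefSeq (GRCm38.p6). The alternatives were other scalings, tools and filters, a replicate block, and leaving out libraries.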

Additional observations from a re-analysis of the deposited data

How the results depend on the processing

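Leaving out each library in turn, edgeR called 0 members in every contrast. The member median then ranged from 0.12 to 1.02 for Olig1 against GFP at day 7, −0.09 to 0.23 at day 14, 0.11 to 0.53 over both days and −0.96 to −0.0790 for their difference. For day 14 against day 7 it ranged from −0.35 to 0.00 with GFP, −1.12 to −0.40 with Olig1 and −0.71 to −0.38 over both viruses. Scaling by the summed member counts, which removes a shift shared by members by construction, gave medians of 0.0819 at day 7, 0.0423 (from −0.63) for the difference between days, −0.0471 for the days with Olig1 and −0.0378 over both viruses. DESeq2 called 1 member at day 7, 1 over both days, 3 between days with Olig1 and 5 over both viruses. In the last, limma voom and the fit with no filter called 1 each. Leaving out the 4 libraries rich in microglia markers, chosen after seeing the data, left 1 GFP day 14 library, in which Rps10 had 1 count. The log2 difference of Rps10 between Olig1 and GFP at day 14 was 10.1 in that fit and rests on this 1 library. The day 14 member median was then 0.51, against 1.53 over all genes. Rps27a between days with GFP was −0.44 in that fit. Without the 50 most abundant genes the mean shares were 2.93%, 3.25%, 2.32% and 2.25% (GFP and Olig1 at day 7, then at day 14). Over all genes, calls at day 7, day 14 and both days numbered 34, 6 and 98 with edgeR, 954, 743 and 1153 with DESeq2 and 409, 30 and 453 with limma voom. For the difference and the days with GFP, with Olig1 and over both viruses they numbered 0, 0, 5 and 10 with edgeR, 527, 646, 626 and 811 with DESeq2, and 0, 18, 292 and 166 with limma voom. With the replicate number as a block, 0 members were called, the medians were 0.55, 0.07, 0.33, −0.47, −0.20, −0.65 and −0.44 in the order above, and all-gene calls were 29, 1, 64, 1, 0, 5 and 2. Deviations of genes from their group mean correlated at −0.07 to 0.04 between same-numbered libraries. Between libraries with different numbers they correlated at −0.06 to 0.07. With 3 pools a group, such values cannot show whether the numbers stand for a shared animal or batch. The cause of the changes between alternatives was not tested. Library totals are lower at day 7 than at day 14, narrowly without overlap, which limits the comparison of the days.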
